A study of Mus musculus with 12 samples.

Results

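Tnfsf4, which encodes OX40 ligand, and Pdcd1lg2, which encodes PD-L2, were followed in mouse bone marrow-derived mast cells with and without IgE and antigen. They are 2 of the 734 endogenous genes on the nCounter Myeloid Innate Immunity Panel, taken by probe name, and both were among the 545 genes tested, which reached 20 counts in 3 or more libraries. Both genes were chosen by their measured rise after stimulation. Tnfsf4 was among the genes with the smallest p for that response in cells edited at Kit, and Pdcd1lg2 among those in cells edited at Mettl3. The stimulation responses of these 2 genes are therefore given as values without a test.

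Mast cells were grown from bone marrow of C57BL/6 mice in IL-3 and edited with Cas9. A ZsGreen cassette was inserted at Kit, which encodes the receptor for stem cell factor, in the control cells, or at Mettl3, which encodes the catalytic subunit of the RNA m6A methyltransferase, and cells with high ZsGreen were sorted. Both genotypes thus carried the reporter and went through the same sort, and the control cells were edited too and were not wild type. Each genotype was left unstimulated or was given IgE and antigen for 4 h, which gives 4 groups of 3 replicates and 12 libraries. The replicate numbers stand for 3 sets of cultures, in each of which all 4 conditions were measured.

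Endogenous probes took 504238 to 737910 counts per library, and the 8 negative control probes had means of 7.13 to 22.8 counts. The positive control probes had geometric means of 738 and 768 counts in the Kit-edited libraries of replicate 1 and of 1195 to 1706 in the other libraries. The panel has no Mettl3 probe. The Kit probe is placed by the file at base 4275 of its transcript, beyond exons 1 and 2, which take the first 476 bases in GENCODE. It lies outside the cut sites, and the cassette carries a polyA signal. Whether that ends transcripts before the probe was not tested. Normalized Kit counts were 1856 to 2856 in the unstimulated libraries labelled Kit and 2456 to 4057 in those labelled Mettl3, and they were higher in the library labelled Kit in replicates 2 and 3. After stimulation the Kit counts were 738 to 1613 and 1550 to 1845, higher in the library labelled Mettl3 in 3 of 3 pairs. The folds of these pairs were 1.59, 1.10 and 2.10. The log2 fold change of stimulated Mettl3-edited over Kit-edited cells was 0.56 (SE 0.32, adjusted p = 0.47 in edgeR's quasi-likelihood test). The resting counts thus show no loss of Kit mRNA that held in every pair, and the genotypes compared below are those of the labels. In ZsGreen-sorted cells made the same way, the study reported loss of Mettl3 protein with Mettl3 edited and of c-Kit protein with Kit edited. It does not state that those were the cells profiled here. All 9 mast cell markers fixed for the check, Fcer1a and Cpa3 among them, were above every negative control in at least 3 libraries. Of the macrophage or dendritic cell list, 11 of 12 markers were not, with Csf1r, Itgax, Clec9a and Flt3 among those 11. The other marker, Adgre1, was above every negative control in 5 libraries. On the lists of other cells, Ctsg (neutrophil list) was above them in 12 libraries, Cd247 and Nkg7 (T, B or NK cell list) in 7 each and Siglecf (eosinophil list) in 6. The other markers of those lists, 8 neutrophil, 5 T, B or NK cell and 5 eosinophil, were not above them in 3 libraries.

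T lymphocytes need a signal through the antigen receptor and further signals from surface ligands on the cells they meet. OX40 ligand belongs to the TNF superfamily and sends a costimulatory signal through OX40, encoded by Tnfrsf4, on activated T cells. PD-L2 belongs to the B7 family and, like PD-L1, binds the inhibitory receptor PD-1, encoded by Pdcd1. Mast cells are activated when antigen crosslinks IgE on the receptor FcεRI, which leads through calcium and kinases to NFAT, AP-1 and NF-kB activity. Mast cells are known to carry OX40 ligand.

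In GRCm39, Tnfsf4 lies at chr1:161222980-161245981 and Pdcd1lg2 at chr19:29388319-29448882, both on the plus strand. The GENCODE canonical transcript of Tnfsf4 has 3 exons and a coding sequence of 198 residues, and that of Pdcd1lg2 has 6 exons and 247 residues. The genotypes were made with a pair of guides each, shown here 5′ to 3′ with the PAM read from the genome in capitals, since they define the groups compared.
Kit guide 1: agtcgggatcaatgcacgtcAGG
Kit guide 2: aaagccgaggccactcgcacGGG
Mettl3 guide 2: ggacacgtggagctctatccAGG
Mettl3 guide 3: gatggggtaaccaacaatcgAGG
The Kit guides match coding sequence of exon 2 at chr5:75767786-75767805 on the minus strand and chr5:75767877-75767896 on the plus strand of GRCm39. Mettl3 guide 2 matches coding sequence of exon 1 at chr14:52542420-52542439 on the minus strand, and Mettl3 guide 3 matches the intron after it at chr14:52542216-52542235 on the plus strand.

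The promoter of Pdcd1lg2 is shown because its mRNA had the higher fold of the 2 in Mettl3-edited cells after stimulation. These are the 250 bases before the start in RefSeq, at chr19:29410669-29410918 on the plus strand of GRCm38.p6, with motif matches in capitals.
Pdcd1lg2 promoter: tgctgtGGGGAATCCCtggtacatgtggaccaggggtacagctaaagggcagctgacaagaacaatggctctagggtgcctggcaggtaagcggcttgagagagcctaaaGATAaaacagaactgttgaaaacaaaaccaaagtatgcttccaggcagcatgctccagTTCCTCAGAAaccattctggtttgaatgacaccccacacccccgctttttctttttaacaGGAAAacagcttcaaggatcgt
Matches were searched on both strands for the NFAT core GGAAA, AP-1 TGANTCA, the NF-kB motif, the STAT6 motif TTCNNNNGAA and GATA. The NF-kB match spans bases -244 to -235 from the start, the GATA match -140 to -137, the STAT6 match -82 to -73 and the NFAT core -22 to -18, none of which overlap, and AP-1 has no match in this window. Among 32851 promoter windows of the same length, 55.1% held the NFAT core, 52.3% GATA, 7.26% the NF-kB motif, 6.60% the AP-1 motif and 5.79% the STAT6 motif. Of the 2 genes, 1 matched this promoter table.

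Tnfsf4 mRNA was low but above background at rest. Normalized counts, scaled by 20 housekeeping probes, were 65.7, 37.9 and 71.8 in the Kit-edited replicates and 64.9, 68.5 and 85.9 in the Mettl3-edited replicates, which gives 58.5 ± 18.1 and 73.1 ± 11.2 (SD, n = 3 each). The groups overlapped. The raw counts were 33 to 99 and exceeded every negative control of their library in all 6 resting libraries.

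After 4 h of IgE and antigen, Tnfsf4 stood at 389, 300 and 615 normalized counts in Kit-edited cells and at 408, 444 and 663 in Mettl3-edited cells. The means were 435 ± 163 and 505 ± 138 (SD, n = 3 each). All 6 stimulated libraries were above all 6 resting ones, and replicate 3 was highest in both stimulated groups. The counting error was 4.82% and 4.50% of the level on average in these groups, against a coefficient of variation of 37.4% and 27.3% between replicates.

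Pdcd1lg2 mRNA was close to background at rest. Normalized counts were 17.8, 53.9 and 36.8 in Kit-edited cells and 35.5, 39.2 and 26.0 in Mettl3-edited cells, with means of 36.2 ± 18.1 and 33.6 ± 6.78 (SD, n = 3 each). The raw counts were 13 to 47, only 1.75 to 2.65 times the mean of the negative controls of the same library. In the Mettl3-edited replicate 2 the 28 counts, with an exact Poisson 95% interval of 18.6 to 40.5 that covers counting error only, were under the highest negative control of 30.

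Stimulated cells had 219, 349 and 301 normalized Pdcd1lg2 counts when edited at Kit and 431, 890 and 469 when edited at Mettl3. The means were 290 ± 65.6 and 597 ± 255 (SD, n = 3 each). Here the genotypes did not overlap, the lowest Mettl3-edited library being above the highest Kit-edited one, as was so for 14.3% of the tested genes, and replicate 2 was highest in both groups. Bulk counts cannot tell more cells that carry an mRNA from more mRNA per cell.

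**Figure D1:**
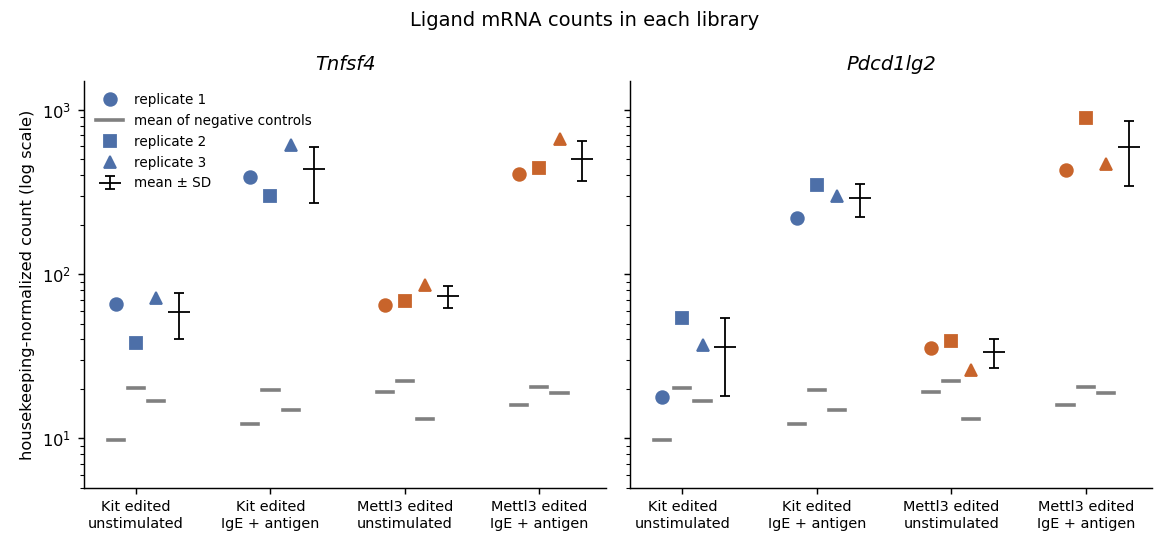
Housekeeping-normalized counts of Tnfsf4 (left) and Pdcd1lg2 (right) on a log axis in each of the 12 libraries, blue for Kit-edited and orange for Mettl3-edited cells, with the mean and SD of each group in black and the mean of the negative controls of each library, scaled alike, in grey. Resting Pdcd1lg2 lies just above the grey marks, and the stimulated Mettl3-edited libraries (431 to 890) lie above the stimulated Kit-edited ones (219 to 349), whereas the genotypes overlap for Tnfsf4.

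The measured rise of Tnfsf4 was alike in size in both genotypes. The fitted log2 fold change from edgeR was 2.89 (SE 0.36, 7.42-fold) in Kit-edited cells and 2.78 (SE 0.36, 6.89-fold) in Mettl3-edited cells, ranks 26 and 43 of the 545 tested genes by that value. Within replicate numbers, on the log2(normalized count + 1) scale, the differences were 2.55, 2.95 and 3.08 with Kit edited and 2.63, 2.68 and 2.93 with Mettl3 edited.

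The rise of Pdcd1lg2 was 2.99 on the log2 scale (SE 0.43, 7.95-fold) in Kit-edited cells and 4.15 (SE 0.45, 17.8-fold) in Mettl3-edited cells, rank 24 of 545 in each. Within replicate numbers the differences were 3.55, 2.67 and 3.00 with Kit edited and 3.56, 4.47 and 4.12 with Mettl3 edited. The Mettl3-edited difference was the larger by 0.01 in replicate 1, by 1.80 in replicate 2 and by 1.12 in replicate 3. With each library's negative control mean subtracted first, the fitted changes were 3.73 and 5.23, so the folds above depend on the background under the resting counts.

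**Figure D2:**
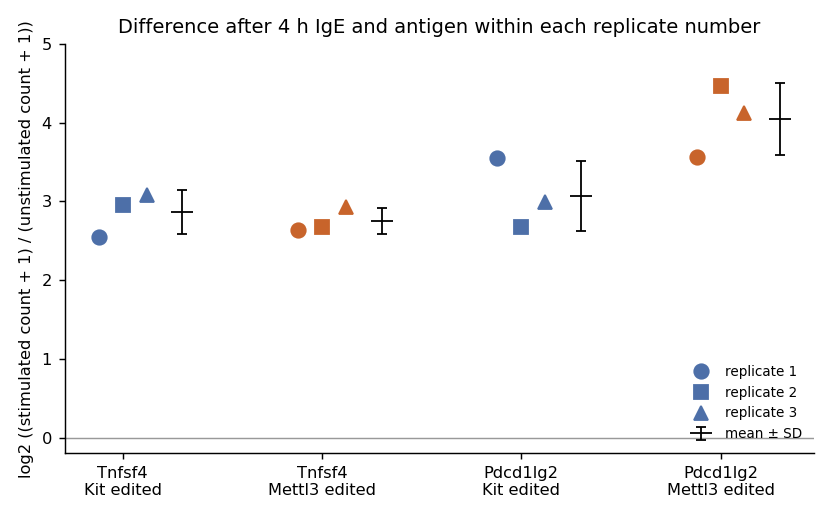
Log2 difference between stimulated and unstimulated cells of the same replicate number, from normalized counts plus 1, for each gene and genotype, with the mean and SD of the 3 pairs in black. Every pair lies above 2.5, and the Mettl3-edited pairs of Pdcd1lg2 in replicates 2 and 3 (4.47 and 4.12) lie above every other pair shown.

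Among all tested genes, 12.1% were higher and 6.79% lower after stimulation in Kit-edited cells at an adjusted p under 0.05 (edgeR's quasi-likelihood test, Benjamini-Hochberg over 545 genes), and 22.0% were higher and 10.6% lower in Mettl3-edited cells. The replicates did not overlap in the upward direction for 18.3% and 26.2% of genes, Tnfsf4 and Pdcd1lg2 included in each. The lists of T cell co-signalling genes, 55 genes in all with the 2 ligands, were read against these shares.
Without the 2 ligands, 37 of the other 53 list genes were tested. Of these, 8 rose and 0 fell in each genotype, and the same 8 genes were called in both: Vsir, Tnfsf10, Tnf, Tigit, Havcr2, Tnfrsf9, Fas and Ceacam1. Vsir and Tigit reached 20 counts in 0 and 1 of the 6 resting libraries and so passed the filter only through stimulated cells, where they are high. The median log2 fold change of the 37 was 0.13 in Kit-edited cells, where the median of all tested genes was -0.05, and 0.39 in Mettl3-edited cells, where it was 0.02. The genotypes share no libraries in these comparisons, but they share the 3 sets of cultures and 1 model, so the calls are not independent. In Kit-edited cells the count of 8 fell to 4 without the unstimulated replicate 1, to 5 without the unstimulated replicate 2, to 4 without the stimulated replicate 3 and to 4 without both replicate 1 libraries. Over all 545 tested genes the calls in either direction fell from 103 to 46, 85, 51 and 58 in these fits. With the replicate number as a block, 10 rose in each genotype, Tnfrsf1b and Tnfrsf12a in addition, and Icosl and H2-Ob fell in Mettl3-edited cells. The calls over all 545 tested genes then numbered 156 in Kit-edited and 223 in Mettl3-edited cells, against 103 and 178 without the block.

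The mast cell markers, taken as a sum, had fewer counts after stimulation. The summed normalized counts of the 9 markers were 352100 to 501179 in the resting libraries and 163738 to 303020 in the stimulated ones, and their part in the values of the ligands was not tested. The means of 8 of 9 markers were lower after stimulation with Kit edited and of 7 of 9 with Mettl3 edited. Hdc, which encodes histidine decarboxylase, went the other way in both genotypes, with 181 to 658 normalized counts at rest and 1134 to 2924 after stimulation with Kit edited, and 125 to 738 and 1217 to 2687 with Mettl3 edited. The Il1rl1 mean was also higher with Mettl3 edited, at 28138 ± 5352 against 36698 ± 14619 (SD, n = 3 each). The 12 macrophage or dendritic cell markers summed to 159 to 208 at rest and to 147 to 204 after stimulation.

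The receptors of the 2 ligands were at or near background on these cells. Pdcd1 did not pass the filter and was above every negative control in 0 of 12 libraries. Tnfrsf4 passed the filter and was above every negative control in 7 of 12. Tnfrsf4 had group means of 22.2 to 33.6 normalized counts, and its log2 fold change after stimulation was 0.35 (SE 0.34, adjusted p = 0.52) in Kit-edited cells and 0.40 (SE 0.33, adjusted p = 0.41) in Mettl3-edited cells.

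Of the B7 family ligands other than Pdcd1lg2, Vsir was the one gene called, higher in both genotypes. Vsir encodes VISTA, an inhibitory ligand of T cells, and moved from 8.62 ± 1.97 to 50.1 ± 19.0 normalized counts in Kit-edited cells and from 14.6 ± 10.7 to 124 ± 7.25 in Mettl3-edited cells (SD, n = 3 each). Vsir was above every negative control in 0 of 6 resting and 6 of 6 stimulated libraries, so its call supports nothing about the list. Cd274, which encodes PD-L1, the other PD-1 ligand, had widely spread replicates, at 791 ± 460 and 1247 ± 805 with Kit edited and 758 ± 184 and 1370 ± 565 with Mettl3 edited (SD, n = 3 each). The log2 fold change of Cd274 was 0.66 (SE 0.51, adjusted p = 0.42) and 0.85 (SE 0.51, adjusted p = 0.24). Cd80 and Cd86, the ligands of CD28 and CTLA-4, had group means of 18.2 to 34.8 normalized counts.

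Of the 8 TNF superfamily ligands, 4 were tested. Of those other than Tnfsf4, Tnfsf10 and Tnf rose in both genotypes. Tnfsf10 encodes the death receptor ligand TRAIL and had log2 fold changes of 1.70 (SE 0.49, adjusted p = 0.032) in Kit-edited and 2.13 (SE 0.49, adjusted p = 0.0063) in Mettl3-edited cells. Tnf had 3.10 (SE 0.99, adjusted p = 0.046) and 6.17 (SE 1.12, adjusted p = 0.0016), with standard errors more than 2 times those of Pdcd1lg2. Tnfsf9, the ligand of 4-1BB, stayed at group means of 20.2 to 31.0 normalized counts, with log2 fold changes of -0.21 (SE 0.37) and 0.06 (SE 0.35) and adjusted p of 0.74 and 0.91.

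Of the 11 TNF superfamily receptors, 7 were tested and 2 rose in each genotype: Tnfrsf9, which encodes 4-1BB, and the death receptor gene Fas. The log2 fold change of Tnfrsf9 was 3.50 (SE 0.88, adjusted p = 0.018) and 3.37 (SE 0.88, adjusted p = 0.012). Of the 8 checkpoint and CD28 group receptors, 4 were tested, and Tigit and Havcr2 rose, the latter encoding TIM-3. Tigit, too, was above every negative control in 0 of 6 resting and 6 of 6 stimulated libraries. Havcr2 moved from 497 ± 136 to 2115 ± 904 normalized counts in Kit-edited and from 554 ± 146 to 2803 ± 862 in Mettl3-edited cells (SD, n = 3 each), with adjusted p of 0.0028 and 0.00074. Of the 11 other contact molecules, 9 were tested and Ceacam1 rose, and of the 9 MHC class II presentation genes, 7 were tested and 0 were called in either genotype.

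**Figure D3:**
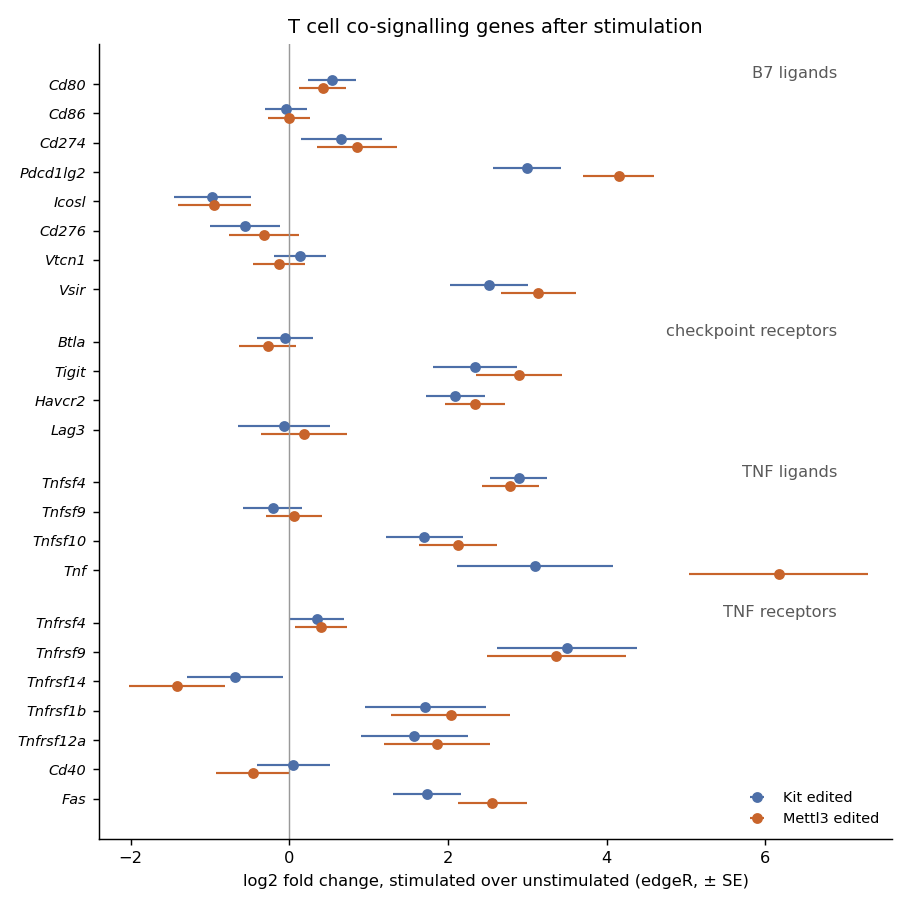
Log2 fold change of stimulated over unstimulated cells with its standard error from the edgeR fit, for the tested genes of 4 co-signalling lists, blue for Kit-edited and orange for Mettl3-edited cells. Tnfsf4 (2.89 and 2.78) and Pdcd1lg2 (2.99 and 4.15) stand beside Vsir, Tigit, Havcr2, Tnfsf10, Tnf, Tnfrsf9 and Fas, while Cd86, Tnfsf9 and Btla lie near 0 in both genotypes.

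The comparison of genotypes sets the Mettl3 edit against the Kit edit. Effects of losing Mettl3 and of losing Kit on the ligand mRNAs cannot be told apart in it. This comparison did not choose the genes, but the stimulated and resting libraries that chose them enter it. The choice favours a high stimulated and a low resting Pdcd1lg2 level in Mettl3-edited cells. It likewise favours a high stimulated and a low resting Tnfsf4 level in Kit-edited cells. The p-values of both genes between genotypes, resting or stimulated, are therefore descriptions only. In resting cells the log2 fold change of Mettl3-edited over Kit-edited was 0.32 for Tnfsf4 (SE 0.35, 95% interval -0.43 to 1.08, adjusted p = 0.997) and -0.12 for Pdcd1lg2 (SE 0.42, 95% interval -1.04 to 0.79, adjusted p = 0.997). Tnfsf4 was higher in the Mettl3-edited library in 2 of 3 same-numbered pairs and Pdcd1lg2 in 1 of 3. The upper limit for Tnfsf4 is 2.11-fold, and the lower limit for Pdcd1lg2 is 0.487-fold. The study called genes at a fold change of 1.5 or more with a p-value, not adjusted, no higher than 0.05. By that rule 0.734% of tested genes were higher in resting Mettl3-edited cells, and 0 of the 39 tested list genes were.

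In stimulated cells Pdcd1lg2 was 2.06-fold higher in Mettl3-edited than in Kit-edited cells, and the difference did not pass the adjustment. The log2 fold change was 1.04 (SE 0.39, 95% interval 0.19 to 1.89), with an unadjusted p of 0.021 and an adjusted p of 0.23 in edgeR's test over 545 genes. It was higher in 3 of 3 pairs, by 1.96-, 2.54- and 1.56-fold. Among all tested genes 0.917% were higher at an adjusted p under 0.05. Pdcd1lg2 met the study's thresholds, as did 13.0% of tested genes in the upward direction. Since the choice of the gene favours this difference, its p-values here and under the alternatives below are descriptions only.

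With the replicate number as a block, the stimulated difference of Pdcd1lg2 was 0.99 (SE 0.27, unadjusted p = 0.0042, adjusted p = 0.11), which met the study's thresholds. Without the Mettl3-edited replicate 2, which holds the 890 normalized counts, it was 0.63 with an unadjusted p of 0.13, and without the stimulated Kit-edited replicate 1 it was 0.87 with an unadjusted p of 0.073. In these 2 fits, and with limma without moderation on the groups compared (0.99, unadjusted p of 0.062), the gene did not meet the study's thresholds. Without both Kit-edited replicate 1 libraries, those with the low positive controls, the value was 0.87 with an unadjusted p of 0.045.

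Tnfsf4 showed no difference of that size in stimulated cells. Its log2 fold change was 0.22 (SE 0.33, 95% interval -0.51 to 0.94, adjusted p = 0.82), with pairs at 1.05-, 1.48- and 1.08-fold, all 3 above 1. The sign turned with DESeq2, at -0.015. The median of all tested genes was itself 0.20 on the log2 scale in this comparison under housekeeping scaling and 0.02 under TMM. Relative to that median Tnfsf4 stood at 0.01 under housekeeping scaling, and Pdcd1lg2 at 0.84 under housekeeping scaling and 0.81 under TMM.

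The interaction term is the difference of the stimulation responses of the genotypes. Since Pdcd1lg2 was chosen by its response in Mettl3-edited cells and Tnfsf4 by that in Kit-edited cells, the choice itself favours the signs found, and the term is given without a test. It was 1.16 for Pdcd1lg2 (SE 0.57, 95% interval -0.09 to 2.41) and -0.11 for Tnfsf4 (SE 0.48, 95% interval -1.15 to 0.94). With the replicate number as a block, the Pdcd1lg2 term was 1.02. Across all tested genes 4.22% met the study's thresholds for a larger response in Mettl3-edited cells, Tnf being the list gene among them.

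Of the 39 tested list genes, 0 were called at an adjusted p under 0.05 in stimulated Mettl3-edited over Kit-edited cells by edgeR, and 0 by DESeq2 or limma. At the study's thresholds 4 of 39 were higher, namely Pdcd1lg2, Vsir, Tnf and Tnfsf10, and 0 were lower, against 13.0% of all tested genes higher. The log2 fold changes were 1.30 for Vsir (SE 0.42, adjusted p = 0.18), 3.19 for Tnf (SE 0.97, adjusted p = 0.16) and 1.33 for Tnfsf10 (SE 0.48, adjusted p = 0.21). Cd274 stood at 0.14 (SE 0.50, adjusted p = 0.92). Without the Mettl3-edited replicate 3, Tnf and Tnfsf10 passed an adjusted p under 0.05, as 2 list genes among 33 of all 545 tested genes called in that fit.

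Markers of other cells were read in the same stimulated groups. The summed normalized counts of the 12 macrophage or dendritic cell markers were 147 to 204 in Kit-edited and 185 to 191 in Mettl3-edited libraries, so their ranges overlapped. The 6 eosinophil markers, of which 5 were not above the negative controls in 3 libraries, summed to 89.0 to 129 and 127 to 194. The 9 neutrophil markers, of which 8 were not, summed to 269 to 851 and 352 to 450. Ctsg, the other marker of that list, had means of 431 ± 319 and 280 ± 53.9 (SD, n = 3 each). The 7 T, B or NK cell markers, of which 5 were not, summed to 118 to 178 and 112 to 230. The 9 mast cell markers summed to 182827 to 303020 and 163738 to 256062. The part of these sums in the Pdcd1lg2 difference was not tested.

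The ratio of the Pdcd1lg2 to the Tnfsf4 count within a library needs no scaling. Its level depends on how well each probe binds, so only its differences between groups are read. On the log2 scale, with 1 count added to each, it was -0.82, 0.22 and -1.03 in stimulated Kit-edited cells and 0.08, 1.00 and -0.50 in stimulated Mettl3-edited cells. Replicate 2 was highest in both, and the genotypes overlapped. The mean difference was 0.74, positive in 3 of 3 pairs at 0.90, 0.78 and 0.53, with p = 0.3 in a two-sided exact permutation test of 3 against 3, where the smallest possible p is 0.1. Paired by replicate number, the exact sign-flip test gave p = 0.25, the smallest it can give. Pdcd1lg2 was chosen by its response in Mettl3-edited cells and Tnfsf4 by that in Kit-edited cells. The choice itself thus favours a positive stimulated difference, and nothing is concluded from these p-values or from the direction of the pairs. In resting cells the difference was -0.36 (exact permutation p = 0.9), and the pairs went both ways, at 0.95, -1.28 and -0.74. The choice favours a negative resting difference, so this p-value too is a description only.

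**Figure D4:**
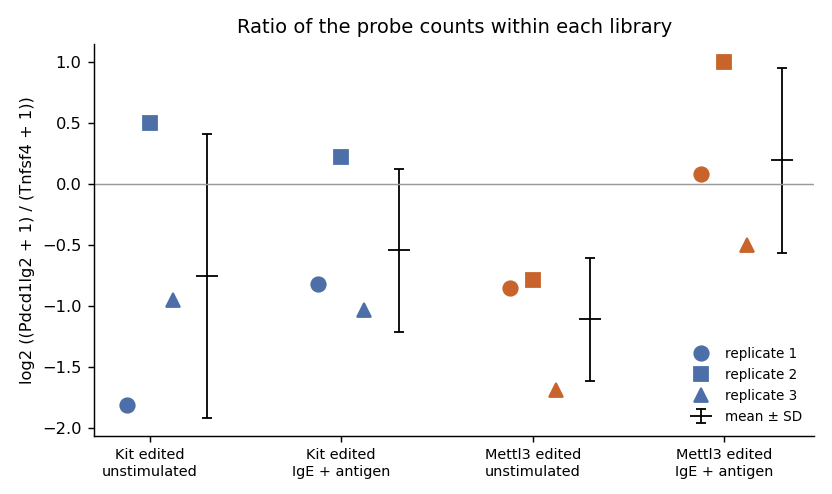
Log2 ratio of the Pdcd1lg2 count to the Tnfsf4 count, each plus 1, within each library, by group and replicate number, with the mean and SD of the 3 libraries in black. Stimulated Mettl3-edited libraries lie 0.53 to 0.90 above the Kit-edited libraries of the same number, while the groups overlap and resting libraries show no common direction.

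The 2 ligand mRNAs were not each other's nearest neighbours. Likeness was measured as the root mean square difference of log2(normalized count + 1) over the 12 libraries after centring each gene on its own mean. For Tnfsf4 the nearest of the other tested genes were Ceacam1 at 0.45, Nfil3 at 0.45, Ccl24 at 0.49, Ets1 at 0.53 and Spry2 at 0.55, with a median of 1.56 over all others. For Pdcd1lg2 they were Nfil3 at 0.43, Gadd45b at 0.51, Fyn at 0.52, Ell2 at 0.56 and Rgs16 at 0.60, with a median of 1.89. Tnfsf4 and Pdcd1lg2 differed from each other by 0.82, rank 26 from Tnfsf4 and rank 17 from Pdcd1lg2.

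Nfil3, which encodes a basic leucine zipper transcription factor, was near both. It had 79.7 ± 17.8 and 651 ± 219 normalized counts in resting and stimulated Kit-edited cells and 93.6 ± 27.0 and 996 ± 188 in Mettl3-edited cells (SD, n = 3 each). The 5 neighbours of Pdcd1lg2 all had higher stimulated means with Mettl3 edited, as Fyn with 407 ± 110 against 879 ± 320 and Gadd45b with 460 ± 174 against 930 ± 461 normalized counts (SD, n = 3 each), which the measure of likeness itself selects. Of the neighbours of Tnfsf4, Ceacam1, Nfil3, Ets1 and Spry2 also had higher stimulated means with Mettl3 edited. Ets1, for example, had 233 ± 42.2 against 363 ± 90.1. Only Ccl24 went the other way, with 231 ± 63.6 against 155 ± 33.2 (SD, n = 3 each).

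Within groups the 2 genes did not deviate together. Over the 12 libraries the Pearson r of their deviations from the group means was -0.45, as a description, since the libraries share cultures by number. The median r over the other tested genes was -0.29 for Tnfsf4 and 0.25 for Pdcd1lg2. Tnfsf4 deviated most like Crip1 (r = 0.91), Mcm5 (r = 0.87) and Il1r1 (r = 0.86), and Pdcd1lg2 most like Nfkbia (r = 0.89), Batf3 (r = 0.87) and Itga4 (r = 0.86). Il1r1, Batf3 and Itga4 were above every negative control in 3, 0 and 4 of 12 libraries, so their counts lie at or near background.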

How the data were processed

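RNA of the 12 libraries (40 ng each) was hybridized to the nCounter Myeloid Innate Immunity Panel and read on 1 cartridge. The authors deposited raw barcode counts per probe, unscaled and without alignment, and 0 columns were left unmapped. Counts were divided by the geometric mean of 20 housekeeping probes. edgeR 4.0.16 in R 4.3.3 tested the 545 genes that reached 20 counts in 3 or more libraries, in 1 model of the 4 groups with library sizes from the housekeeping factors and Benjamini-Hochberg adjustment. Ratios were compared with SciPy. Alternatives were TMM, DESeq2 1.42.0, limma 3.58.1, other filters and backgrounds, a replicate block, and libraries left out. Counts near the negative controls could not be told from background.

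Tnfsf4, Pdcd1lg2 and the lists were chosen with earlier results of these data known. Named genes are the 2 ligands, Tnfrsf4, Pdcd1, Cd274, Tnfsf9, Kit, up to 10 called list genes per comparison, and for each ligand the 5 nearest genes and the 3 with the highest r. Cd80, Cd86, Btla, Vcam1, Icosl, H2-Ob, Tnfrsf1b, Tnfrsf12a, Nectin1 and the markers are named beyond that rule, after their values were seen. Same-numbered libraries deviated together (r of 0.14 to 0.52 in all 18 pairs), and the design text names 3 sets of cells, so the numbers pair the libraries.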

Additional observations from a re-analysis of the deposited data

How the results depend on the processing

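Of 314 values under alternatives, 11 changed sign and 15 values without a test moved by more than 1 SD of the pairs or, as counts, by over 1.5 times. With the background subtracted, the stimulation response of Tnfsf4 was 3.29 (Kit edited) and 3.14 (Mettl3 edited), that of Pdcd1lg2 3.73 and 5.23, and called co-signalling genes numbered 5 in Kit-edited cells. Subtraction lowers the resting counts by construction. With limma without moderation on the groups compared the called co-signalling genes numbered 3 (Ceacam1, Vsir and Vcam1) and 5 with Mettl3 edited, against 8 each. Of the 3, 2 were higher, and Vcam1, above every negative control in 1 library, was lower. Without both Kit-edited replicate 1 libraries, an alternative chosen after seeing the data, 4 were called. Over all 545 tested genes the background subtracted fit called 77 in Kit-edited cells. Limma without moderation called 49 and 68, and the fit without both replicate 1 libraries 58, against 103 and 178 in the main fit. With the replicate block but without the stimulated Mettl3-edited replicate 3, which a supplement of the study numbers 5, 3 list genes (Nectin1, Tnf and Tnfsf10) were called between stimulated genotypes. That fit called 45 of all 545 tested genes. The stimulated genotype difference of Tnfsf4 turned to -0.015 with DESeq2, and the resting one of Pdcd1lg2 to 0.0074 with limma trend and with limma without moderation. The causes were not tested.

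With 1 library left out, the responses of Tnfsf4 were 2.55 to 3.10 (Kit edited) and 2.54 to 2.92 (Mettl3 edited), and those of Pdcd1lg2 2.68 to 3.38 and 3.75 to 4.34. The genotype difference of Tnfsf4 was 0.09 to 0.50 at rest and -0.03 to 0.55 stimulated, that of Pdcd1lg2 -0.44 to 0.27 and 0.63 to 1.23, with adjusted p of 0.14 to 0.72 for the last. Interactions were -0.35 to 0.23 for Tnfsf4 and 0.76 to 1.48 for Pdcd1lg2. The sign of the Tnfsf4 interaction turned without Kit-edited resting replicate 2 (0.13), Kit-edited stimulated replicate 3 (0.23), Mettl3-edited resting replicate 3 (0.03) or Mettl3-edited stimulated replicate 1 (0.03). Without Mettl3-edited stimulated replicate 3 the stimulated Tnfsf4 difference was -0.030. Without Kit-edited resting replicate 2 or Mettl3-edited resting replicate 3 the resting Pdcd1lg2 difference was 0.27 or 0.04. The ratio difference was -0.88 to 0.27 at rest, 0.27 without Kit-edited replicate 2, and 0.33 to 1.12 stimulated. Called list genes numbered 4 to 7 (Kit edited), 8 to 12 (Mettl3 edited), 0 at rest and 0 to 2 between stimulated genotypes. Over all 545 tested genes the calls in the same fits numbered 46 to 107, 121 to 180, 0 and 0 to 33. The replicate block changed no call at an adjusted p of these 2 genes. With no library left out, the stimulated Pdcd1lg2 difference was 0.80 to 1.07 with adjusted p of 0.11 to 0.63. With the replicate block but without the stimulated Mettl3-edited replicate 3 it was 1.10 with an adjusted p of 0.061. Depth limits resting Pdcd1lg2, whose counts lie near the negative controls.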
